A study of Caenorhabditis elegans with 4 samples.

Results

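The peaks described here are those of the crossover protein ZHP-3 on the 2 arms of Caenorhabditis elegans chromosome V. They were taken from a list of ZHP-3 peaks for the whole experiment, called the combined list, as the peaks on V whose midpoint lies below 5897000 or above 16550000 on WormBase WS220. These limits bound the outer parts of the chromosome, where published genetic maps place most recombination, and the very tips are included. Of 11843 combined peaks, 985 met the rule, 541 on the left arm and 444 on the right arm. In the same intervals the list of ChIP replicate 1 held 489 of its 5981 peaks and that of ChIP replicate 2 held 535 of its 7001.

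ZHP-3 was mapped by ChIP-seq, which sequences the DNA precipitated with an antibody; the antibody was polyclonal, raised in rabbit and affinity-purified. All 4 libraries, 2 of ChIP DNA and 2 of input DNA, came from hermaphrodite young adults with a germline, of the strain and genotype fem-2(b245)III, at 20 °C. The libraries were made from whole worms, so germline nuclei were mixed with those of somatic tissue. No group without the allele or with another antibody was analysed here, and neither was the input DNA, so the comparisons are between chromosome regions within the same libraries.

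ZHP-3 is a RING-finger protein of meiotic prophase that is needed for crossovers in C. elegans, and it spreads along the synapsed chromosomes before it collects at crossover sites. Worm autosomes have gene-dense centres with little recombination and arms with much recombination, more repeats and more repressive histone H3 lysine 9 methylation. The arms of V, the longest chromosome, are known for large families of chemoreceptor genes. fem-2 acts in sex determination, and its loss feminises the germline.

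The V arms were among the autosomal arms with the fewest ZHP-3 peaks per Mb. In the combined list the left arm had 91.7 peaks per Mb and the right arm 101.5. The 8 arms of chromosomes I to IV ran from 96.3 on the left arm of II to 164.6 on the right arm of III, with a mean of 128 ± 22.1 (SD, n = 8 arms). Of the 10 arms the V left arm was the lowest and the V right arm the third lowest, with the left arm of II between them.

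Both replicate lists gave nearly the same order. Replicate 1 had 46.0 peaks per Mb on the V left arm and 49.84 on the V right arm, against 49.81 to 80.1 on the other 8 arms. Replicate 2 had 48.8 on the V left arm and 56.5 on the V right arm, against 57.2 to 91.5 on the others. In replicate 2 the V arms lay below all 8 other arms, whereas the left arm of II lay below the V right arm in the other lists.

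With arms as the units, the V arms had a geometric mean density 0.76 times that of the other 8 arms in the combined list, a log2 difference of -0.39. An exact two-sided permutation test over the 10 arms gave p = 0.0889, or 0.286 adjusted over the 5 tests made here by the Benjamini-Hochberg method, so the difference did not pass the threshold of 0.05. The 45 assignments allow no p below 0.0222. The same exact permutation test gave p = 0.0667 (log2 difference -0.41) with the replicate 1 list and p = 0.0222 (log2 difference -0.42) with the replicate 2 list. All arms come from the same libraries, so these p-values describe the spread between arms and not between worms. The permutation also counts the 2 arms of a chromosome as separate units, although V is 1 chromosome. If arms of the same chromosome are alike, these p-values and their lower bound are too small. The same holds for every permutation test over arms given below.

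**Figure D1:**
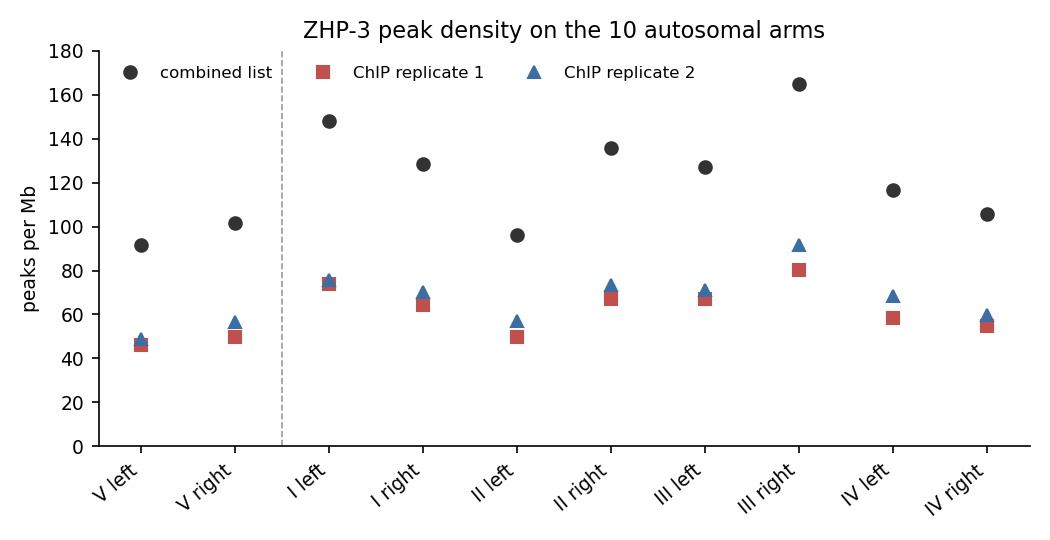
Peaks per Mb (y axis) on each of the 10 autosomal arms (x axis) in the combined list, ChIP replicate 1 and ChIP replicate 2; the dashed line parts the V arms from the arms of I to IV. The V left arm is the lowest point of each list, at 91.7, 46.0 and 48.8 peaks per Mb.

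Stretches of over 50 kb with no peak at all were more frequent on both V arms than on any of the 8 other arms. This feature and its limit were picked after the values were seen and are therefore given with no test. It is also not independent of the peak density, since fewer peaks per Mb leave more room for long stretches. Both V arms and the left arm of II, the highest of the other arms here, were the arms with the fewest peaks per Mb. Whether the V arms have more such stretches than their density alone gives was not tested. The V arms held 33 stretches of over 50 kb without a combined peak, 19 on the left arm and 14 on the right arm, in 10.3 Mb. The 8 other arms held 43 in 31.6 Mb, with 2 to 13 on each. The V arms thus had 3.22 (left) and 3.20 (right) such stretches per Mb, and the other arms had 0.614 to 2.66. The V centre had 1.97 per Mb, above all of the 8 other arms but the left arms of II and IV. The order depends on the limit. Over 20 kb the V left arm had 14.6 per Mb and the V right arm 13.5, below 16.0 on the left arm of II and 15.0 on the right arm of IV. Over 30 kb and over 40 kb the V left arm was the highest, but the V right arm, with 8.46 and 4.34, lay below the left arm of II, with 8.81 and 4.92. Over 30 kb it also lay below the right arm of IV, with 8.62. Over 60 kb both V arms were again above the others (2.03 and 2.29 per Mb, against at most 1.11). Over 80 kb the V right arm (0.229) was below the right arms of IV (0.442) and II (0.307) and the left arm of III (0.269).

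These stretches took up 22.2% of the V left arm and 22.1% of the V right arm. On the other arms they took up 4.39% to 15.4%, with the left arm of II the highest. In the V centre they took up 13.0%, more than on any of these arms but the left arm of II. None of the 489 replicate 1 peaks and none of the 535 replicate 2 peaks on the V arms had its midpoint in one of the 33 stretches. This follows in large part from the overlap of the lists, since only 1 of the 489 and 4 of the 535 had no combined peak over them.

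The replicate lists, which hold fewer peaks, were examined with a limit of 100 kb. Replicate 1 had 9 stretches over that limit on the V left arm and 8 on the V right arm, against 0 to 4 on the other arms. Replicate 2 had 7 on each V arm, against 0 to 3 on the others. The share of the arm in them was 22.7% and 23.6% in replicate 1 for the V left and V right arms, and 14.7% and 19.5% in replicate 2. The other arms reached at most 10.6% in replicate 1 and 7.44% in replicate 2, so in each list both V arms lay above all 8 others. The V arms were also among the arms with the fewest peaks per Mb in these lists, so these values too depend on the density.

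**Figure D2:**
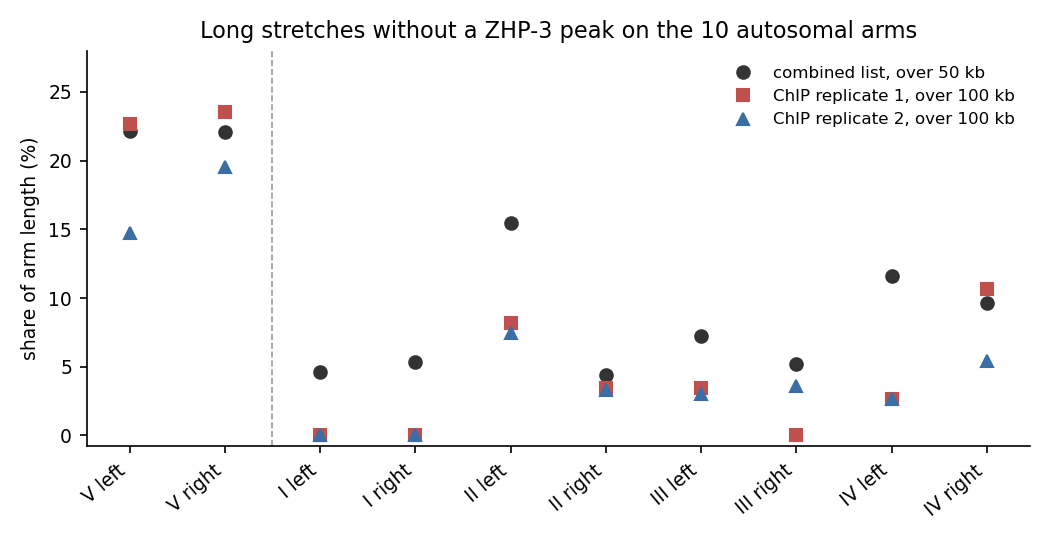
Share of the length of each autosomal arm (y axis, percent) that lies in stretches without a peak, counting stretches over 50 kb for the combined list and over 100 kb for the replicate lists. The 2 V arms, at the left, stand above the 8 other arms in every list, with 22.2% and 22.1% in the combined list.

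The 2 longest such stretches of the V left arm ran from 4196579 to 4310512 (114 kb) and from 2949915 to 3053801 (104 kb). On the V right arm they ran from 19246040 to 19364219 (118 kb) and from 18266586 to 18346082 (79.5 kb). The longest stretch on any of the other 8 arms was 91.5 kb, on the right arm of IV. That of the V centre was 94.4 kb. In replicate 1 the longest stretch of the V left arm reached from 2891289 to 3193110 (302 kb). The combined list had 6 peaks in it, none scoring above 11.1. Those from 2949391 to 2949914, from 3053802 to 3054105 and from 3098964 to 3099428 were found in replicate 2 alone. Replicate 2 thus had peaks in this stretch. Its own longest stretch of the V left arm lay beside that of replicate 1 and did not overlap it, from 2731133 to 2890651 (160 kb).

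Outside the stretches of over 50 kb the V arms were closer to the rest. With those stretches taken off the length of every arm, the V left arm had 118 peaks per Mb and the V right arm 130, against 114 to 174 on the other arms. The ratio of the geometric means was then 0.90, against 0.76 for the whole arms, and the exact permutation p was 0.311. Removing stretches chosen for having no peak raises the density of any arm that has them, so this value describes the layout and is no independent comparison.

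No difference in peak density was detected between the left and right arms of V. The left arm had 541 peaks in 5.897 Mb and the right arm 444 in 4.37 Mb, a ratio of left to right of 0.90 (exact 95% interval 0.80 to 1.03, exact conditional binomial p = 0.115, two-sided, adjusted p = 0.286). The ratio was 0.92 in replicate 1 (exact p = 0.385) and 0.86 in replicate 2 (exact p = 0.0967). The interval treats peaks as independent and covers counting error only. In 500 kb windows the variance of the peak number was 5.17 times its mean on the left arm (n = 11 windows), so for that arm the interval is too narrow.

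Window counts varied more on the left arm in the combined list. Over its 11 full windows of 500 kb the combined list had from 21 to 75 peaks, with a median of 40. The 8 full windows of the right arm had from 39 to 59, with a median of 54, and a variance of 0.99 times the mean. In replicate 1 the variance was 2.46 times the mean on the left arm and 1.02 times on the right arm, and in replicate 2 it was 1.62 and 1.54 times. The window from 2.0 to 2.5 Mb was the richest of the left arm, with 75 combined peaks, 36 of replicate 1 and 31 of replicate 2. The one from 3.5 to 4.0 Mb followed with 67, 32 and 28. The poorest window, from 3.0 to 3.5 Mb, lies between them, with 21, 8 and 10. A typical window on the other arms held more, with a median of 63 combined peaks over 59 windows.

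Window counts of the 2 replicates went together on the V arms (Spearman's rho 0.81, Pearson's r 0.81 over 19 windows). On the other arms rho was 0.82 (59 windows). Neighbouring windows share chromatin and all windows of a list share its library, so these values are descriptions. The tips differed in the same direction in each list. In the combined list the left tip had 71.5 peaks per Mb; it had 37.3 in replicate 1 and 49.8 in replicate 2, and the right tip had 120.9, 54.5 and 66.4 in the same lists. These rest on 46 combined peaks in the left tip of 0.643 Mb and 71 in the right tip of 0.587 Mb. The rest of the left arm had 94.2, 47.0 and 48.7 peaks per Mb in the same lists. Its tip was thus not lower than the rest of that arm in replicate 2. The rest of the right arm had 98.5, 49.1 and 54.9. The tip limits are not part of the rule.

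**Figure D3:**
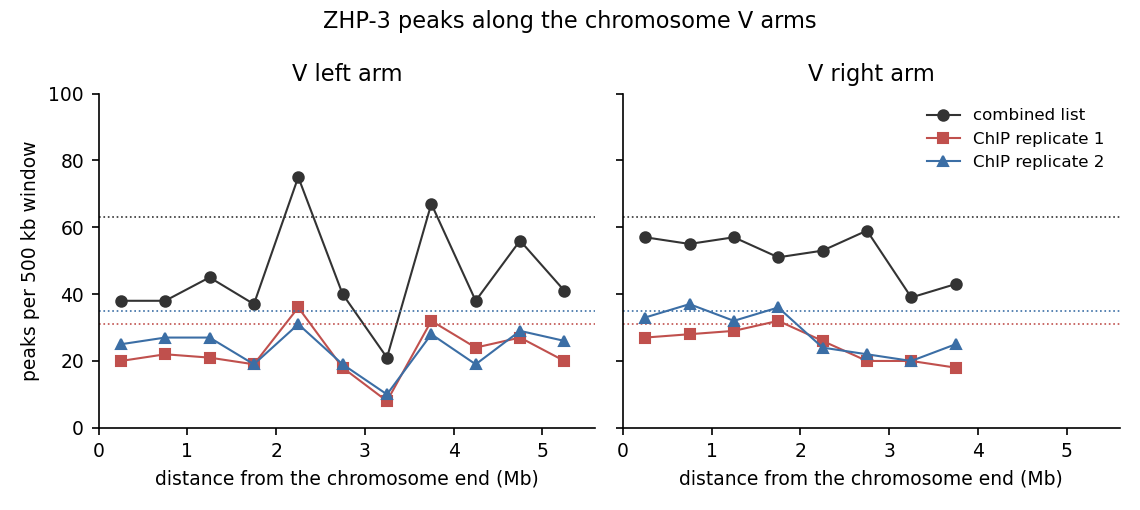
Peaks per 500 kb window (y axis) on the V left and V right arms by distance from the chromosome end in Mb (x axis), for the combined list and each ChIP replicate; dotted lines give the median window of the arms of I to IV in the same list. The left arm swings between 21 and 75 combined peaks, and the right arm stays between 39 and 59.

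The share of V arm peaks found in the replicate lists lay within the range of the other arms. Of the 985, 390 overlapped a peak in both replicates by at least 1 bp, which is 39.6% (Wilson 95% interval 36.6 to 42.7), against 42.4% over all nuclear combined peaks. The share was 40.3% on the left arm and 38.7% on the right arm, and 37.4% to 43.6% on the other 8 arms. The mean of the V arms was 1.54 percentage points below that of the other arms (exact permutation p = 0.356, adjusted p = 0.593). Left and right differed by 1.56 percentage points (Fisher's exact test p = 0.647, adjusted p = 0.8).

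Another 90 V arm peaks were found in replicate 1 alone (9.14%, against 6.19% of all) and 120 in replicate 2 alone (12.2%, against 14.2% of all). The remaining 385 were in neither list (39.1%, against 37.2% of all). On the arms of I to IV 7.17% were in replicate 1 alone, 11.1% in replicate 2 alone and 40.8% in neither. The V arms thus lay on opposite sides of all peaks and of the other arms for replicate 2 alone and for neither. The lowest score was 50.03 in each replicate list and 1.31 in the combined list, though the scales may differ. The replicate lists are also shorter, so a peak in neither list may have been under the limit of those lists. Its absence there does not show that a replicate lacked signal. The share found in replicate 1 alone was 9.24% on the V left arm and 9.01% on the V right arm, the highest 2 of the 10 arms, and the other 8 ran from 5.21% to 8.80%. This ordering was noticed after the values were seen and was not tested.

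Support followed the score, which the peak caller gave each peak and whose scale is not named. Above percentile 75 of the combined list, 229 of 234 V arm peaks (97.9%) were found in both replicates. Between percentiles 50 and 75, 144 of 254 were (56.7%). Between 25 and 50, 13 of 246 were (5.28%), and below that 4 of 251 (1.59%). On the arms of I to IV the shares, in the same order, were 98.9%, 59.1%, 7.83% and 1.52%. The pattern was thus not particular to V. The median score was 38.5 and the median width 490 bp for V arm peaks found in both, against 5.13 and 211 bp for those found in neither. On the arms of I to IV these were 39.4 and 499 bp, against 5.19 and 214 bp.

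**Figure D4:**
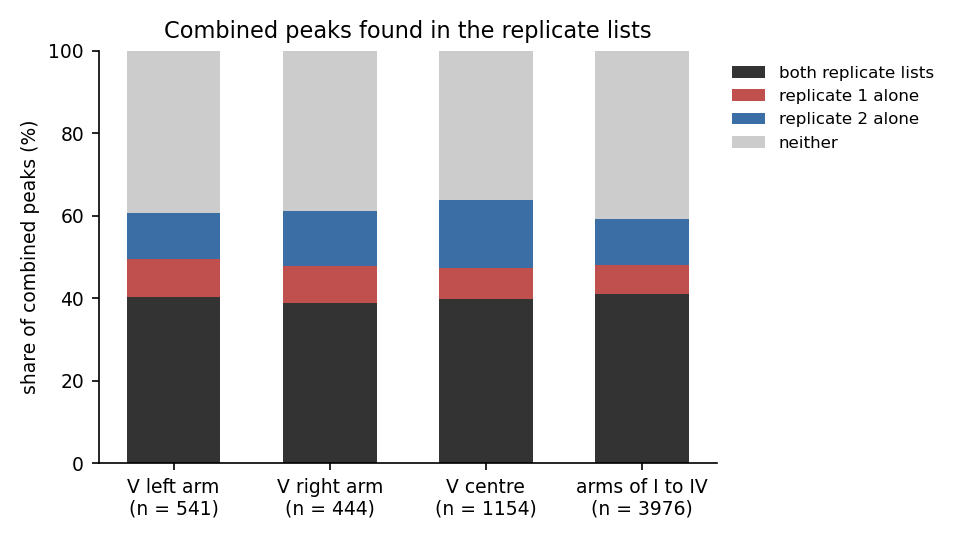
Share of combined peaks (y axis, percent) found in both replicate lists, in one alone or in neither, for the V left arm, V right arm, V centre and the arms of I to IV, with the number of combined peaks under each bar. The share found in both is 40.3%, 38.7%, 39.7% and 41.0%.

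The median scores and widths of V arm peaks lay within the range of the other arms. The median combined score was 12.4 on each arm, at percentile 49.2 of the list, and the median percentile of the other arms ran from 45.2 to 54.7. The mean of the V arms was 0.51 percentile points above that of the others (exact permutation p = 0.8, adjusted p = 0.8). In the upper 25% of the list by score were 138 of the 541 left arm peaks and 96 of the 444 right arm peaks. The share was 25.5% and 21.6% for these arms, against 25% of all nuclear peaks by construction. On the other 8 arms it ran from 22.4% to 26.6%, so the V right arm had the lowest share of the 10.

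Widths had a median of 319 bp on the left arm and 326 bp on the right arm, within the 296.5 to 338 bp of the other arms. Peaks of 1000 bp or more made up 7.76% of the left arm peaks and 9.01% of the right arm peaks, against 7.08% of all. The other arms ran from 4.83% to 9.39%. The 2 V arms together had 95.9 combined peaks per Mb, against 108 in the V centre between them, and the share found in both replicates was 39.6% on the arms and 39.7% in the centre.

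The 5 highest-scored V left arm peaks found in both replicates had combined scores from 140.05 to 152.52. The first, from 5591888 to 5592735, ranked 31 in the combined list, and its partners scored 1472 in replicate 1 and 1969 in replicate 2. The second, from 1254058 to 1255630, scored 149.83 and reached 3100 in both replicates, the value at which many strong peaks of the replicate lists are tied. Those from 5008839 to 5010886 and from 5639639 to 5641585 also had 3100 in both. The peak from 2600488 to 2600932 was narrow, with 445 bp, and scored 1469 in replicate 1 and 1875 in replicate 2.

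The strongest V right arm peaks had lower combined scores, from 113.13 to 141.81. The highest lay from 17775403 to 17776659, ranked 81, and had 3100 in replicate 1 and 2555 in replicate 2. The one from 19932998 to 19934105 had 3100 in both. The other 3 were the peaks at 19522546 to 19523136, 17518951 to 17519469 and 17981415 to 17982179. Their partners scored 1017 to 1140 in replicate 1 and 1537 to 2307 in replicate 2. All 10 of these peaks were single peaks in each replicate.

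The widest V arm peaks did not have the highest combined scores. On the left arm the widest peak found in both replicates ran from 3434536 to 3441210 (6675 bp, combined score 45.2, rank 2083) and reached 3100 in both replicates. It lies in the poorest window of the arm. The next ran from 5838710 to 5845042 (6333 bp) and was split into 2 peaks in each replicate. On the right arm the widest pair were neighbours, from 17119902 to 17126593 (6692 bp) and from 17128124 to 17132119 (3996 bp), both with a combined score of 37.4. In the replicates they had 3100 and 1842 in replicate 1, and 3100 for each in replicate 2. A stretch of 63.8 kb with no combined peak follows the second of them, from 17132120 to 17195878.

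At the inner limits of the arms, the last left arm peak, from 5847772 to 5848259, scored 14.9 and was found in replicate 2 alone, and the first centre peak, from 5917701 to 5918002, scored 32.6. On the right side the first arm peak, from 16552624 to 16552811, scored 4.61, and the last centre peak, from 16547172 to 16548887, scored 53.6. Both of these were found in both replicates. The left arm began with a peak at bases 1 to 346 that both replicates held. The last right arm peak, from 20923820 to 20924172, was in neither replicate list.

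Scores of the replicates were set side by side for 367 pairs of V arm peaks that overlapped one to one. Spearman's rho was 0.74 on the V left arm (209 pairs) and 0.75 on the V right arm (158 pairs), against 0.81 over 1613 pairs on the other arms. By chromosome, the arms of I to IV gave 0.80 to 0.82. The score was higher in replicate 2 in 72.5% of V arm pairs and in 72.1% of pairs on the other arms. The median ratio of replicate 2 to replicate 1 was 1.43 on the V arms and 1.35 on the other arms. By chromosome it was 1.29 to 1.43 on the arms of I to IV, with that of III as high as on V. These are descriptions across peaks of 2 libraries, with no test.

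Pairs with scores more than 5-fold apart were 4.09% on the V arms (13 higher in replicate 2 and 2 higher in replicate 1), against 1.98% on the other arms (24 and 8). The share was 4.31% on the V left arm, 3.80% on the V right arm and 2.05% in the V centre. By chromosome it was 1.53% to 2.43% on the arms of I to IV. This comparison rests on few pairs, was not planned and was not tested. The largest gaps, picked after the values were seen, were at wide peaks. A right arm peak that replicate 1 listed from 17308497 to 17311710 scored 57.0 there, and its partner in replicate 2 scored 3100. A left arm peak from 5283169 to 5285933 scored 63.1 in replicate 1 and 3100 in replicate 2. The partners had nearly the same borders, from 17308517 to 17311656 and from 5283195 to 5285927. In the other direction the left arm peak from 3984179 to 3985231 scored 860 in replicate 1 and its partner 63.7 in replicate 2. Here the borders differed, since the partner ran from 3984236 to 3984463 (228 bp, against 1053 bp in replicate 1).

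**Figure D5:**
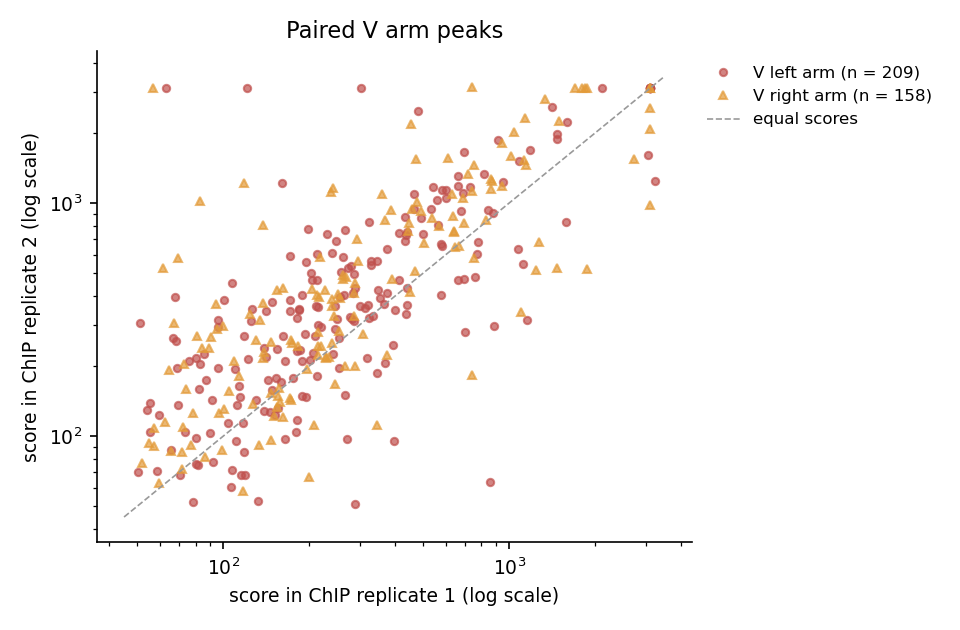
Scores of V arm peaks that overlap one to one, ChIP replicate 1 (x axis) against ChIP replicate 2 (y axis), both log scales, as the authors' caller gave them; the dashed line marks equal scores. Most points lie above the line, with a median ratio of 1.43, and the points at the upper left, at 3100 in replicate 2, go down to 57.0 in replicate 1.

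Strong peaks of a single replicate were also listed on the V arms. Of all V arm peaks, 404 of 489 in replicate 1 had a partner in replicate 2 (82.6%, against 87.3% of all replicate 1 peaks). In replicate 2, 408 of 535 had one in replicate 1 (76.3%, against 74.7% of all). On the arms of I to IV these shares were 85.1% in replicate 1 and 77.6% in replicate 2. When only peaks above percentile 75 of their own list were counted, 6 of 132 V arm peaks of replicate 1 lacked a partner (4.55%), against 5 of 534 on the other arms (0.936%). In replicate 2, 8 of 145 lacked one (5.52%), against 12 of 593 (2.02%). In the V centre 2 of 128 lacked one in replicate 1 (1.56%) and 5 of 164 in replicate 2 (3.05%). In each replicate a single V arm lay above all 8 other arms. In replicate 1 it was the left arm, with 6.06%, while the V right arm, with 3.03%, was below the left arm of II (3.45%). In replicate 2 it was the right arm, with 8.11%, while the V left arm, with 2.82%, was below the left arms of IV (4.41%) and III (2.94%). This comparison was made after the values were seen and was not tested.

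On the left arm the strongest such peak of replicate 1, from 3978025 to 3981530 with a score of 3100, had company. With this peak included, replicate 1 listed 5 peaks from 20 kb before it to 20 kb after it. Of these, 4 lacked a partner, among them this peak and one from 3989086 to 3989972 with a score of 769. Replicate 2 listed 1 peak there, with a score of 63.7. On the right arm the strongest of replicate 2, from 16707097 to 16709501, scored 3100 and was 2405 bp wide, and replicate 1 had no peak over it. The combined list held a single peak there with a score of 27.7. The strongest of replicate 2 on the left arm, from 1104534 to 1105258, scored 1173, and the strongest of replicate 1 on the right arm, from 17908938 to 17909873, scored 679.

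The V arms held 1 closely spaced run. Defined as 10 or more peaks with no gap over 1500 bp, it held 12 V arm peaks (1.22%, against 2.6% of all and 1.36% on the arms of I to IV). By arm the share was 0% on the V left arm and 2.70% on the V right arm, and 0% to 4.74% on the other 8. It lay on the right arm from 17384124 to 17394372, over 10.2 kb, with combined scores of 8.02 to 37.5. Replicate 2 listed 12 peaks in it, with scores up to 2316, and replicate 1 listed 6, none above 154. In 7 of the 12 combined peaks both replicates had a peak. The longest run of the left arm had 7 peaks, from 1833092 to 1838841, of which 2 were found in both replicates.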

How the data were processed

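Peak positions and scores came from the deposited lists of the 2 ChIP libraries and of the series. The score is the authors' own value, written by their peak caller; per the file headers and source columns the callers were MACS (replicates) and MACS v2 (combined list), on WormBase WS220, and per the submitters' processing notes BWA and ce10 were used. The sources used here give no threshold, control or pooling. Scores were only ranked, or set side by side between the replicate lists. Per the labels' protocols, chromatin was fixed with 1% formaldehyde for 10 minutes and 5 µg of antibody was used. The labels do not tie replicates to separate cultures, so their spread may be technical. Lists hold no read counts: depth is unknown.

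Arm limits of I to IV and the tip limits of V were entered from memory of published recombination domains. They were not checked against a source and may stem from an older WormBase release than WS220. The limits of I to IV underlie every value of the other arms. Outer parts of equal length within each chromosome, longer on longer chromosomes, were an alternative. Chromosome length was the largest peak end. Overlap meant at least 1 bp, checked against bedtools 2.31.1. Tests were exact permutations over arms, an exact binomial test and Fisher's exact test, run with scipy 1.17.1, pandas 2.3.3 and numpy 2.4.6 under Python 3.11.15; matplotlib 3.10.9 drew the figures. Wilson intervals cover counting error only. The density and ratio tests were tested on simulated counts that held counting error and a planted difference alone. The real arms spread more widely, so the simulation does not show how the tests perform on these data. Named peaks were, per arm, the 5 highest-scored and 2 widest combined peaks found in both replicates, the strongest peak of each replicate without a partner, the 2 longest stretches without a peak, the longest run, and the peaks at the limits and ends; others are marked as picked after the values were seen. Members, rule and comparisons were chosen with earlier results of these data known. Genes were not assigned, because the annotation at hand is of another build.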

Additional observations from a re-analysis of the deposited data

How the results depend on the processing

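The density of the V arms relative to the arms of I to IV stayed below 1 in all 10 alternatives, with log2 differences from -0.46 to -0.15. It passed the threshold of 0.05 in 3 of them: in the upper 25% by score (-0.46, exact permutation p = 0.0444), in peaks found in both replicates (-0.44, exact permutation p = 0.0444) and in the replicate 2 list alone (-0.42, exact permutation p = 0.0222, the smallest possible); the replicate lists gave -0.42 and -0.41. Outside the stretches of over 50 kb, an alternative added after seeing the data, it was -0.15. The V left arm was not the lowest arm in every alternative. In the upper 25% by score it had 23.4 peaks per Mb, the V right arm 21.9 and the lowest other arm 22.1. In covered bases it had 43.37 kb per Mb, against 43.30 on the lowest other arm. With outer parts of equal length within each chromosome as arms it had 99.22 peaks per Mb, against 99.15 on the lowest other arm. No tested alternative of the other 4 results passed the threshold (the left to right ratio of covered bases has no test), and 5 of their values changed sign. The left to right log2 ratio was 0.093 in the upper 25% by score, against -0.15 over all peaks, and -0.21 to -0.12 in the replicate lists. The share found in both was 0.44 percentage points higher on the V arms when replicate 1 alone was required, and -0.38 with replicate 2 alone. The left minus right share was -0.87 percentage points with replicate 2 alone and 1.79 with replicate 1 alone. The median percentile difference was -1.33 among peaks found in both replicates and -0.55 with outer parts of equal length within each chromosome as arms. In the replicate lists it was 1.43 to 1.97. The cause of these changes was not tested. No paired analysis was possible because only the ChIP libraries, 1 group, have peak lists here. Depth is unknown, so sites under the caller's threshold may lie in the stretches without a peak.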
